A study of Mus musculus with 6 samples.

Results

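Integrins and laminins are cell-surface receptors and the basement membrane proteins that many of them bind. The probe sets were chosen by name. A probe set belonged if the platform annotation gave it exactly 1 gene and that gene's symbol began with Itga or Itgb, or with Lama, Lamb or Lamc followed by a digit. This gave 84 of 45037 probe sets, for 39 of 18193 genes: 16 integrin alpha chains, 9 integrin beta chains, 10 laminin chains and 4 genes that carry an integrin's name without being a subunit. No probe set with several gene names held a member.

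An integrin is a pair of an alpha and a beta chain that spans the cell membrane, and the pairing sets what it binds: collagen, laminin, proteins with an RGD motif such as fibronectin and vitronectin, or surface proteins of other cells. Laminins are trimers of an alpha, a beta and a gamma chain that form the sheet of a basement membrane. In the brain such sheets lie around blood vessels and under the pia, and neurons and glia carry integrins as well.

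The RNA came from ribosomes tagged in chosen cells of the mouse cortex (translating ribosome affinity purification, TRAP), where a BAC (bacterial artificial chromosome) transgene built on a driver gene decides which cells carry the tag. One group was the S100a10 line ES691 and the other the Glt25d2 line DU9, each with 3 arrays titled as biological replicates, both on a background backcrossed from FVB onto C57BL/6 for 3 to 5 generations and neither treated; the driver Glt25d2 is now named Colgalt2. The study set the lines side by side as cortical pyramidal cells, and its text warns that the S100a10 BAC also marks some cells that are not neurons. In the titles only the S100a10 replicate numbers carry a suffix, b, which cannot be told apart from the line. The titles do not say what it marks. Each line is a single BAC line, and the labels give neither the age of the mice nor whether tissue was pooled, so the spread between arrays may hold technical parts. In TRAP from a tissue, fewer cells of a type and less RNA per cell cannot be told apart.

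Values are intensities as the authors normalized them, and each difference is the S100a10 mean minus the Glt25d2 mean on the log2 scale. A probe set was tested if its mean reached 50 in at least 1 line, and a difference counted as passing at an adjusted p under 0.05 from limma (Benjamini-Hochberg over 21291 probe sets). The scale differed between the lines: the median intensity was 20.4 to 21.3 in Glt25d2 arrays and 35.5 to 35.8 in S100a10 arrays, and the median difference of all tested probe sets was 0.55, or -0.06 after quantile normalization of the 6 arrays. Sorted log2 values differed on average by 0.0174 to 0.0811 between arrays of a line and by 0.4467 to 0.5077 between lines. Which scale between the lines is right could not be settled from the files, so each difference and bound as deposited carries this uncertainty. Glt25d2 replicate 3 stood apart from replicates 1 and 2 of its line: 1621 of the tested probe sets (7.61%) were more than 4-fold lower in it than their mean, and 5 were more than 4-fold higher. The drivers followed their labels, with S100a10 at 13060 to 17900 against 3126 to 3444 and Colgalt2 at 827 to 1352 in Glt25d2 arrays against 11.4 to 11.7. Neurod6, a transcription factor of pyramidal neurons, had means of 3784 in Glt25d2 and 7112 in S100a10 arrays.

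Most members were dim. Of the 84 probe sets 26 (31.0%) were tested, against 47.3% of all probe sets, and they cover 18 of the 39 genes. Among the 26, 19 were higher in S100a10 arrays and 1 was lower, while 44.2% of all tested probe sets were higher and 4.39% lower. In 21 of the 26 every S100a10 array lay above every Glt25d2 array, and in 1 the reverse held (55.1% and 7.63% of all tested). Of these 26, 14 reached a mean of 50 in S100a10 arrays alone, 13 of them with every Glt25d2 array under 50, and 1, that of Itga8, reached it in Glt25d2 arrays alone. The filter therefore favoured differences, and the count is no support by itself. With both line means at 50 or more, 5 of 11 member probe sets were higher and 0 lower (limma; 35.3% and 3.82% of all). The 6 tested laminin chains held 5 that were higher, and the 9 tested integrin chains 4 that were higher and 1 that was lower, with each gene read from its brightest probe set; over all 11821 genes the shares were 44.4% and 4.5%. The integrin counts changed with the scaling, as did those of all genes. After quantile normalization or median centring 1 chain was higher and 2 were lower, beside 18.4% and 18.4% of all genes after quantile normalization. After quantile normalization without Glt25d2 replicate 3, 1 was higher and 6 were lower, beside 23.7% and 22.9% of all genes. Laminin chains had 3 higher and 0 lower after either rescaling, and 3 higher and 1 lower in the last fit; with values under 50 set to 50, 3 were higher and 0 lower. After quantile normalization 11 member probe sets were higher and 2 lower, against 16.8% and 19.4% of all. After centring each array on its median 12 were higher and 2 lower (15.8% and 30.3% of all), and with no filter 45 of the 84 were higher and 15 lower (43.6% and 11.4%).

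**Figure D1:**
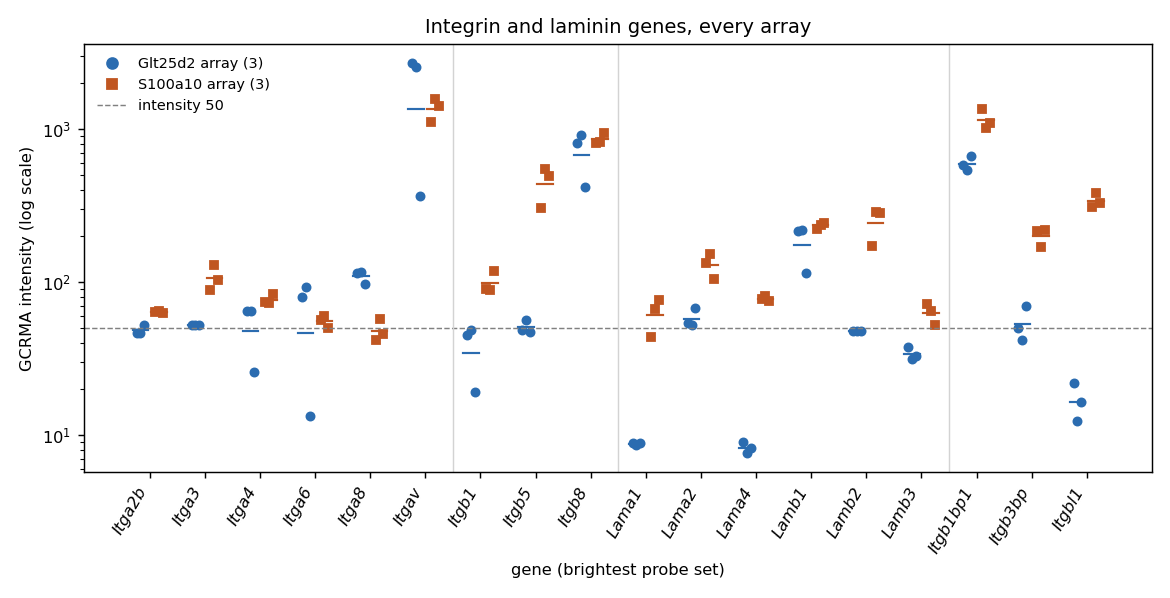
GCRMA intensity on a log axis for the 18 tested genes, each by its brightest probe set; every point is 1 array (blue circles Glt25d2, orange squares S100a10), short lines are means of log2 values and the dashed line is an intensity of 50. For Itgb5 the S100a10 arrays lie at 304.9 to 546.7 and the Glt25d2 arrays at 47.2 to 56.6, whereas for Itgav the groups overlap because 1 Glt25d2 array lies at 367.1 and the others at 2535 and 2688.

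Among integrin beta chains, Itgb5 differed most. It encodes beta5, which pairs with alphaV to bind vitronectin. Its 250 bases before the annotated start are shown beside those of Lamb2, the laminin chain with the highest bound on its fold toward S100a10, and of Itga8, the 1 member that was lower, so that genes of opposite direction can be compared (RefSeq, GRCm38.p6; Itgb5 at chr16:33829415-33829664 on the plus strand, Lamb2 at chr9:108479612-108479861 on the plus strand, Itga8 at chr2:12301945-12302194 on the minus strand). Capitals mark the motifs searched.
Itgb5: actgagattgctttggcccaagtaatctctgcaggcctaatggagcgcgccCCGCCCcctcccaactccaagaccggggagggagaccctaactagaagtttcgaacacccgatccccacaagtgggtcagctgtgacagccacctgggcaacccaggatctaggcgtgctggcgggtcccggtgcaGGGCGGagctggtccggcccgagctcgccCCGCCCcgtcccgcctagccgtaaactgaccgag
Lamb2: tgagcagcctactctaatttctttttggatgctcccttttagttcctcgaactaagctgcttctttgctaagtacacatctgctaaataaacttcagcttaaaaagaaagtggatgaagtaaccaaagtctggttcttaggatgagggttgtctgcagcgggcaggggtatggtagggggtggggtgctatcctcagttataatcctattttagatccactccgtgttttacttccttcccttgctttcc
Itga8: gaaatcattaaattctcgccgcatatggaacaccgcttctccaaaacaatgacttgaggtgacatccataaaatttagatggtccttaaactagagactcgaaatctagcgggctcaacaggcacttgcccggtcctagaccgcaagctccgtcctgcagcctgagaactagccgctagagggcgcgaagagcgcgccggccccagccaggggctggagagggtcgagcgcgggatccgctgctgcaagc

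The motifs were the GC box GGGCGG, the TATA box TATAAA, the AP-1 site TGACTCA and the E-box CACGTG, each on both strands. The Itgb5 window holds 3 GC boxes and none of the other motifs, and the Lamb2 and Itga8 windows hold none of the 4. G and C make up 65.2% of the Itgb5 window, 56.4% of that of Itga8 and 43.6% of that of Lamb2. The table held windows for 26 of the 39 genes, 29 windows in all. A GC box stood in 10 of the 29 (34.5%) and in 32.7% of 32817 windows of all genes, a TATA box in 0 of 29 against 12.4%, an AP-1 site in 1 against 4.46% and an E-box in 0 against 6.02%. Itgb5, which was higher in S100a10 arrays, and Itga8, which was lower, thus differ in GC boxes, while Lamb2, which was also higher, has none.

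Itgb5 was read by 4 probe sets, and each passed. On the brightest, 1456195_x_at, the Glt25d2 arrays read 48.4, 56.6 and 47.2 and the S100a10 arrays 304.9, 546.7 and 494.7, a mean of 50.8 ± 5.12 against 448.8 ± 127 (SD, n = 3 each). Every S100a10 array lay above every Glt25d2 array. The difference was 3.10 (SE 0.24, limma adjusted p = 2.52e-04), or 2.29 after quantile normalization. On 1417534_at the Glt25d2 arrays read 12.4, 12.4 and 11.9 and the S100a10 arrays 258.9, 319.6 and 345.1. Since the first group lay under 50 throughout, only a bound holds: at least 6.11-fold higher in S100a10 cells (limma adjusted p = 9.75e-06). The bounds were 5.31-fold for 1417533_a_at and 4.05-fold for 1456133_x_at. On 1417533_a_at Glt25d2 replicate 3 read 4.58 against 16.8 in both others, and the fitted difference of 4.61 was 3.98 without that array. All bounds are for the deposited scaling, and after rescaling the fold toward S100a10 can lie below them.

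Itgb1 encodes beta1, the partner of most collagen, laminin and fibronectin receptors. Its brighter tested probe set, 1426918_at, read 44.8, 48.2 and 19.2 in Glt25d2 arrays and 90.4, 89.3 and 117.9 in S100a10 arrays. The groups did not overlap, and the bound was at least 1.97-fold toward S100a10 (limma adjusted p = 0.0211), a call that ended when any 1 S100a10 array was left out (0.0594 to 0.0814). The other, 1452545_a_at, was at least 1.57-fold higher (limma adjusted p = 9.26e-04). After quantile normalization the differences were 0.65 and 0.31, and neither passed. The remaining 4 Itgb1 probe sets lay under 20 in every array.

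Itgb8, the beta chain that pairs with alphaV to release active TGF-beta, was bright in both lines. Its Glt25d2 arrays read 805.3, 911.0 and 417.4 and its S100a10 arrays 810.8, 818.2 and 946.0. The low Glt25d2 value is that of replicate 3, and the groups overlap. The difference of 0.35 (SE 0.31, limma adjusted p = 0.389) did not pass, and it was -0.22 after quantile normalization and -0.001 without replicate 3; with both steps it was -0.52 and passed (limma adjusted p = 0.0213).

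Itgav, the alphaV chain shared by the beta5 and beta8 receptors, turned on 1 array. On 1452784_at the Glt25d2 arrays read 2688, 2535 and 367.1 and the S100a10 arrays 1121, 1570 and 1424. Glt25d2 replicate 3 was 7.11-fold lower than replicates 1 and 2 together, further than for any other tested member. With all arrays the difference was 0.001 (SE 0.80, limma adjusted p = 1.0). Without replicate 3 it was -0.94 and passed (limma adjusted p = 0.00323), and after quantile normalization as well it was -1.34. The other 4 Itgav probe sets lay under 14 in every array.

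Itga6, a laminin-receptor chain that pairs with beta1 or beta4, did the same. On 1422445_at the Glt25d2 arrays read 79.8, 93.1 and 13.2 and the S100a10 arrays 56.3, 59.9 and 50.3. The difference was 0.26 (SE 0.76, limma adjusted p = 0.791) with all arrays and -0.64 without replicate 3, where it passed (limma adjusted p = 0.0072). Itga3, the other tested alpha chain of laminin receptors, was higher in S100a10 arrays. Its brightest probe set, 1455158_at, read 52.7 in every Glt25d2 array and 88.7, 128.9 and 103.6 in the S100a10 arrays, a difference of 1.01 (SE 0.16, limma adjusted p = 0.00336). Its tested neighbour 1421997_s_at was at least 1.44-fold higher (limma adjusted p = 6.59e-04). After quantile normalization these were 0.079, which did not pass, and 0.55, which did (limma adjusted p = 0.0413). Not all 3 Glt25d2 values were distinct in 11 of the 26 member probe sets and 23.4% of all tested. Where all 3 were identical, as on 1455158_at, they understate the spread there.

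Itga8 was lower in S100a10 arrays. Alpha8 pairs with beta1 and binds nephronectin. On 1454966_at the Glt25d2 arrays read 113.8, 117.0 and 97.2 and the S100a10 arrays 41.5, 57.7 and 45.4, a mean of 109.3 ± 10.7 against 48.2 ± 8.46 (SD, n = 3 each). No arrays overlapped. The difference was -1.19 (SE 0.16, limma adjusted p = 0.00203), -2.04 after quantile normalization and -1.27 without replicate 3. Npnt, which encodes nephronectin, read 636.3, 565.0 and 133.6 in Glt25d2 arrays and 163.2, 303.0 and 203.1 in S100a10 arrays. Its difference of -0.75 (SE 0.65, limma adjusted p = 0.371) did not pass, and -1.47 without replicate 3 did (limma adjusted p = 0.00289).

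The last 2 tested alpha chains were close to the limit of 50. Itga4, whose chain binds VCAM-1 and fibronectin, read 64.9, 64.9 and 25.6 in Glt25d2 and 74.1, 72.7 and 83.1 in S100a10 arrays, a difference of 0.69 (SE 0.39) that did not pass (limma adjusted p = 0.192). After quantile normalization without Glt25d2 replicate 3 it passed in the opposite direction, at -0.62 (limma adjusted p = 0.00755). Vcam1 itself was higher in S100a10 arrays, by 3.56 (SE 0.69, limma adjusted p = 0.00822), or 2.77 without Glt25d2 replicate 3. Itga2b, known from platelets, read 46.5, 46.5 and 52.0 in Glt25d2 and 63.3, 64.8 and 62.9 in S100a10 arrays. Its difference of 0.40 (SE 0.10) passed as deposited (limma adjusted p = 0.0174), and it passed in the opposite direction after quantile normalization, at -0.53 (limma adjusted p = 0.0329). It counts among the 4 higher integrin chains as deposited, but no direction is given for it.

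**Figure D2:**
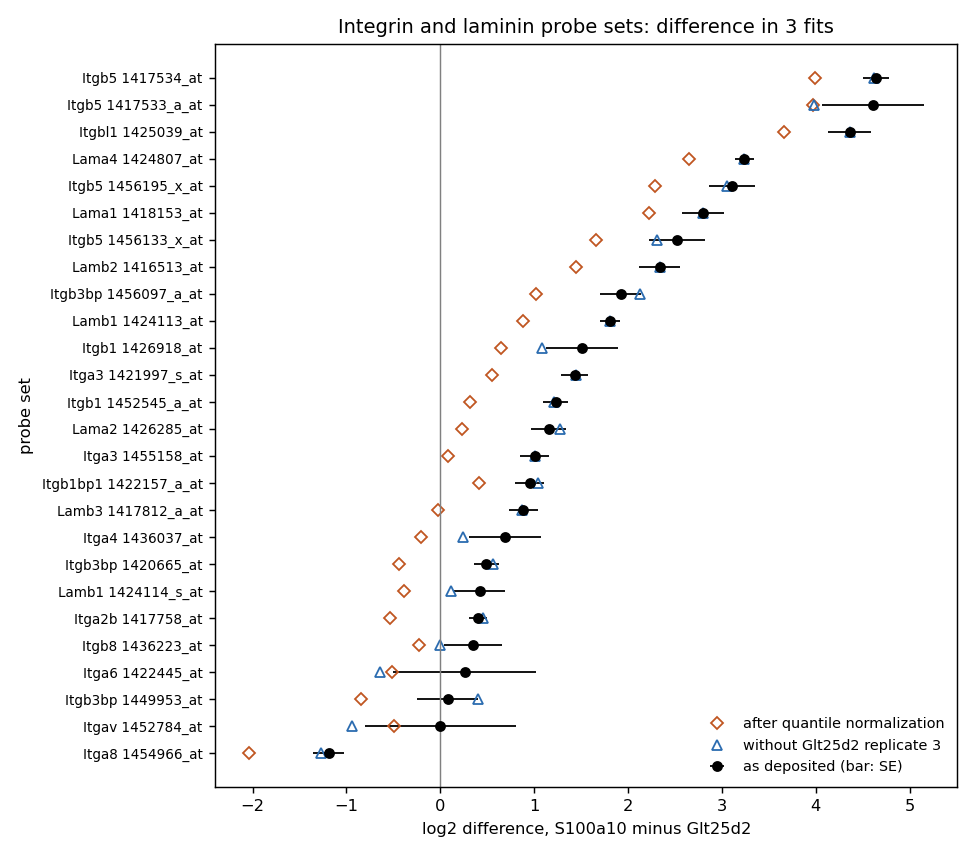
Log2 difference, S100a10 minus Glt25d2, of the 26 tested integrin and laminin probe sets in 3 fits: as deposited with its standard error (black), after quantile normalization (orange diamonds) and without Glt25d2 replicate 3 (blue triangles). Of the 26, 25 lie above 0 as deposited and 16 after quantile normalization, and Itgav and Itga6 cross 0 when replicate 3 is left out.

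Of 5 laminin alpha chains 3 were tested, and these were higher in S100a10 arrays as deposited; Lama3 and Lama5 were too dim. Lama4, the alpha4 chain known from vessel basement membranes, read 8.94, 7.67 and 8.17 in Glt25d2 arrays and 77.6, 81.5 and 74.6 in S100a10 arrays, at least 1.56-fold higher (limma adjusted p = 1.33e-05). Lama1 read 8.80, 8.60 and 8.80 against 43.4, 66.8 and 76.9, at least 1.21-fold higher (limma adjusted p = 2.71e-04). These bounds are small because the S100a10 values are themselves little over 50, and with values under 50 set to 50 Lama1 did not pass (0.35). Lama2, the alpha2 chain that binds dystroglycan, read 54.0, 52.4 and 67.5 in Glt25d2 and 132.8, 152.5 and 104.3 in S100a10 arrays. It was higher by 1.16 (SE 0.19, limma adjusted p = 0.00386) and did not pass after quantile normalization, at 0.23.

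Among beta chains, Lamb2 stood out from its group in all 3 S100a10 arrays. It read 47.9 in each Glt25d2 array and 172.1, 288.2 and 283.7 in S100a10 arrays, at least 4.83-fold higher (limma adjusted p = 5.14e-04). After quantile normalization the log2 difference was 1.45 (limma adjusted p = 0.00752). Lamb3, the beta3 chain of epithelial laminin, read 37.6, 31.4 and 33.0 against 71.9, 64.5 and 52.7, at least 1.25-fold higher (limma adjusted p = 0.00512). It lay at -0.025 after quantile normalization and did not pass with values under 50 set to 50 (0.32, limma adjusted p = 0.0996).

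The Lamb1 probe sets disagreed. The brightest, 1424114_s_at, read 217.2, 217.9 and 114.7 in Glt25d2 and 223.5, 236.8 and 244.7 in S100a10 arrays, and its difference of 0.42 (SE 0.27) did not pass (limma adjusted p = 0.25). On 1424113_at, Glt25d2 arrays all read 37.4 and S100a10 arrays 123.4, 124.8 and 145.4, at least 2.62-fold higher (limma adjusted p = 9.01e-05). After quantile normalization the first lay at -0.39 and the second at 0.88, which passed (limma adjusted p = 0.00489). With Glt25d2 replicate 3 left out as well, the first passed in the opposite direction, at -0.59 (limma adjusted p = 0.0093). Both other Lamb1 probe sets lay under 10 in every array.

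No gamma chain was tested, although every laminin trimer needs one. Lamc1, the most common gamma chain, read 6.20 in every Glt25d2 array and 34.6, 34.8 and 35.4 in S100a10 arrays on 1423885_at. Lamc3 read 26.8 in every Glt25d2 array and 21.2, 33.5 and 35.1 in S100a10 arrays on 1451758_at. Values under 50 lie near the background of the arrays, so no fold is given and a low signal does not show that the messenger is absent.

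Of the 4 genes named for integrins without being subunits 3 were tested, and these were higher in S100a10 arrays on their brightest probe sets; Itgb1bp2 was too dim. Itgbl1, a secreted protein whose repeats resemble those of beta chains, read 21.9, 12.4 and 16.5 in Glt25d2 and 308.9, 381.5 and 329.5 in S100a10 arrays, at least 6.77-fold higher (limma adjusted p = 6.15e-05). Itgb1bp1, a cytoplasmic protein that binds the beta1 tail, read 578.2, 538.0 and 663.9 against 1358, 1015 and 1089, a difference of 0.95 (SE 0.15, limma adjusted p = 0.00396) that was 0.41 and did not pass after quantile normalization. Itgb3bp, which is also a centromere protein, differed by 1.92 on 1456097_a_at (SE 0.22, limma adjusted p = 0.00108). Its other tested probe sets gave at least 1.25-fold (limma adjusted p = 0.0277) and a difference of 0.077 (limma adjusted p = 0.856), so the probe sets do not give 1 value.

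Of the 58 probe sets that were not tested, 57 lay under 50 in every array and all lay between 3.09 and 56.9. They hold all probe sets of 21 genes: the collagen-receptor chains Itga1, Itga2 and Itga10, the alpha chains Itga5, Itga7 and Itga9, the leukocyte chains Itgae, Itgal, Itgam, Itgax, Itgb2, Itgb2l and Itgb7, the beta chains Itgb3, Itgb4 and Itgb6, the laminins Lama3, Lama5, Lamc1 and Lamc3, and Itgb1bp2. Itgb4, which pairs with alpha6, stayed under the limit with groups that did not overlap. It read 6.53, 6.53 and 6.73 in Glt25d2 and 38.9, 39.7 and 35.0 in S100a10 arrays. Itgam, the alphaM chain of microglia, read 4.97 to 5.29 in all arrays on its 1 probe set.

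**Figure D3:**
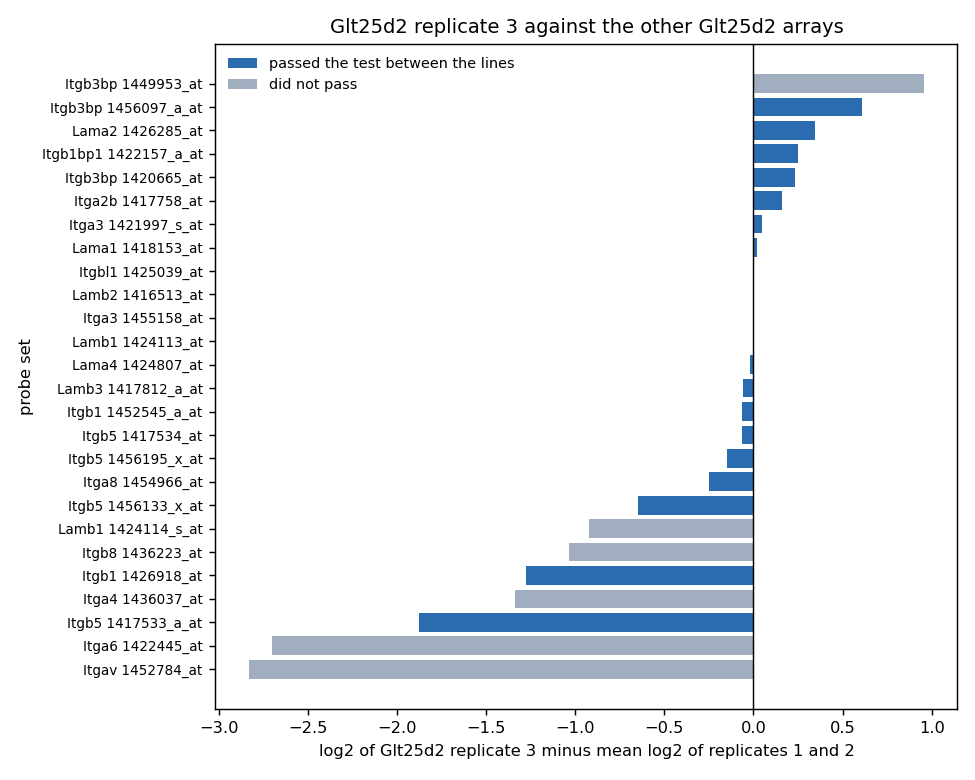
Log2 of Glt25d2 replicate 3 minus the mean log2 of Glt25d2 replicates 1 and 2 for the 26 tested probe sets; blue bars passed the test between the lines and grey bars did not. Itgav lies lowest at -2.83, followed by Itga6 at -2.70. Lamb2, Lamb1 1424113_at and Itga3 1455158_at lie at 0 with identical values in the Glt25d2 arrays, and the brighter Lamb1 1424114_s_at lies at -0.92.

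Receptor chains made up most of the members that were low in Glt25d2 replicate 3, and they gave 7 alpha and 7 beta probe sets of the 26 tested. That array was over 1.5-fold lower than replicates 1 and 2 together in 8 of the 26 member probe sets (30.8%), against 16% of all tested, and over 1.5-fold above in 2 (7.69% against 12.5%). At over 4-fold lower the members did not differ from the rest, with 2 (7.69%) against 7.61% of all tested. The 8 were those of Itgav, Itga6, Itga4 and Itgb8, 1 each, with 2 of Itgb5, 1 of Itgb1 and the brightest of Lamb1. Those of Itgb5 and Itgb1 lay under 50 in every Glt25d2 array. Without that array 19 member probe sets were higher in S100a10 arrays and 3 lower (55.1% and 6.01% of all), and after quantile normalization as well 12 and 7 (22.4% and 24%). By gene, without that array 3 were lower in S100a10 arrays, namely Itga8, Itgav and Itga6, and 12 were higher, against 6.11% and 55% of all genes. With both steps 7 were lower and 7 higher (22.9% and 23.7% of all genes). The cause of the low values was not tested.

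Partners of both families were read from lists, with genes by their brightest probe set; the median difference of all genes was 0.56, or -0.02 after quantile normalization. Of 13 measured basement membrane genes other than laminins, 4 lay under 50 in every Glt25d2 array. These were measured through their S100a10 values alone, which favours higher counts. As deposited 7 of the 13 were higher and 0 lower in S100a10 arrays, with a median of 1.51, beside 44.4% higher and 4.5% lower over all genes. After quantile normalization 5 were higher and 0 lower (median 0.73), beside 18.4% and 18.4% of all genes. Without Glt25d2 replicate 3 the median was 0.67, beside 0.52 for all genes, with 7 higher and 1 lower (55% and 6.11% of all genes). With both steps 5 were higher and 3 lower (23.7% and 22.9% of all genes). Of the genes higher as deposited, Hspg2 lost its call without Glt25d2 replicate 1 or 2 or S100a10 replicate 2 or 3. Ntn4 lost its call without any 1 S100a10 array. Nid1, which links laminin to collagen IV, was at least 5.01-fold higher, Fbln1 (fibulin 1) at least 5.71-fold and the collagen IV chain Col4a5 at least 3.98-fold. Sparc, a matrix protein that binds collagen, differed by 5.04 (SE 0.74, limma adjusted p = 0.0028), or 4.17 without replicate 3. Col4a1, a main chain of vessel basement membranes, differed by 0.24 and did not pass (limma adjusted p = 0.475). It lay at -0.66 after quantile normalization (limma adjusted p = 0.0613), and with both steps it passed in the opposite direction, at -0.86 (limma adjusted p = 0.00801).

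Of 12 laminin receptors and co-receptors outside the integrins, 3 lay under 50 in every Glt25d2 array and were measured through their S100a10 values alone. As deposited 4 of the 12 were higher and 0 lower, beside 44.4% and 4.5% of all genes. The 4 were Sspn (sarcospan), at least 3.36-fold, the syndecans Sdc4, at least 1.75-fold, and Sdc1, at least 1.16-fold, and Cd151, a tetraspanin that binds laminin-receptor integrins, by 2.32 (SE 0.60, limma adjusted p = 0.0224). Leaving out Glt25d2 replicate 3 moved Cd151 to 1.65, and leaving out any 1 S100a10 array ended its call. Dag1, which encodes dystroglycan, read 1111, 990.0 and 109.6 in Glt25d2 and 1170, 1680 and 1638 in S100a10 arrays. Its difference of 1.58 (SE 0.92) did not pass (limma adjusted p = 0.206) and fell to 0.49 without replicate 3. Without that array the median of these 12 genes went from 1.55 to 0.50, beside 0.52 for all genes, with 6 higher and 0 lower (55% and 6.11% of all genes). After quantile normalization 4 were higher and 2 lower (18.4% and 18.4% of all genes). The lower ones were Dmd, at -1.04 (limma adjusted p = 0.0159), and Utrn, at -0.74 (limma adjusted p = 0.014). With both steps 4 were higher and 2 lower (23.7% and 22.9% of all genes).

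Of 21 other integrin ligands, 9 lay under 50 in every Glt25d2 array. These were measured through their S100a10 values alone, which favours higher counts and a higher median. As deposited 14 of the 21 were higher and 0 lower, with a median of 2.36 (44.4% and 4.5% of all genes). Without replicate 3, 14 were higher and 2 lower, with a median of 1.65 (55% and 6.11% of all genes). After quantile normalization 10 were higher and 1 lower (18.4% and 18.4% of all genes), and with both steps 11 and 5 (23.7% and 22.9%). Of the ligands higher as deposited, Ccn1 and Postn lost their calls without Glt25d2 replicate 1 or 2 or S100a10 replicate 3. Ccn2 lost its call without S100a10 replicate 1 or 2, and Jam2 without any 1 S100a10 array. Vtn, vitronectin, the ligand of alphaV-beta5, read 67.9, 105.0 and 17.1 in Glt25d2 and 1677, 2293 and 2083 in S100a10 arrays, a difference of 5.34 (SE 0.67, limma adjusted p = 0.00155), or 4.57 without replicate 3. Fn1, fibronectin, was at least 8.16-fold higher, Col1a2 at least 36.6-fold and Col3a1 at least 5.91-fold. Of 38 cytoplasmic genes that bind integrin tails or tie them to actin, 5 lay under 50 in every Glt25d2 array. As deposited 23 of the 38 were higher and 1 lower, with a median of 0.85 (44.4% and 4.5% of all genes). After quantile normalization 15 were higher and 1 lower, with a median of 0.30 (18.4% and 18.4% of all genes). Bcar1, higher as deposited, lost its call without Glt25d2 replicate 1 or 2 or S100a10 replicate 3. Kank2, which binds talin, was at least 24.5-fold higher and the actin cross-linker Flna at least 5.57-fold. Dab2, an endocytic adaptor, differed by 4.31 (SE 0.20), and Tgfb1i1, a relative of paxillin, by 3.33 (SE 0.18). Talin 1 (Tln1) differed by 0.86 and the kinase gene Ilk by 1.42, and both passed, although Tln1 did not after quantile normalization (0.43, limma adjusted p = 0.0624), while Parvb, a parvin, was lower by 0.93 (limma adjusted p = 0.00254).

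**Figure D4:**
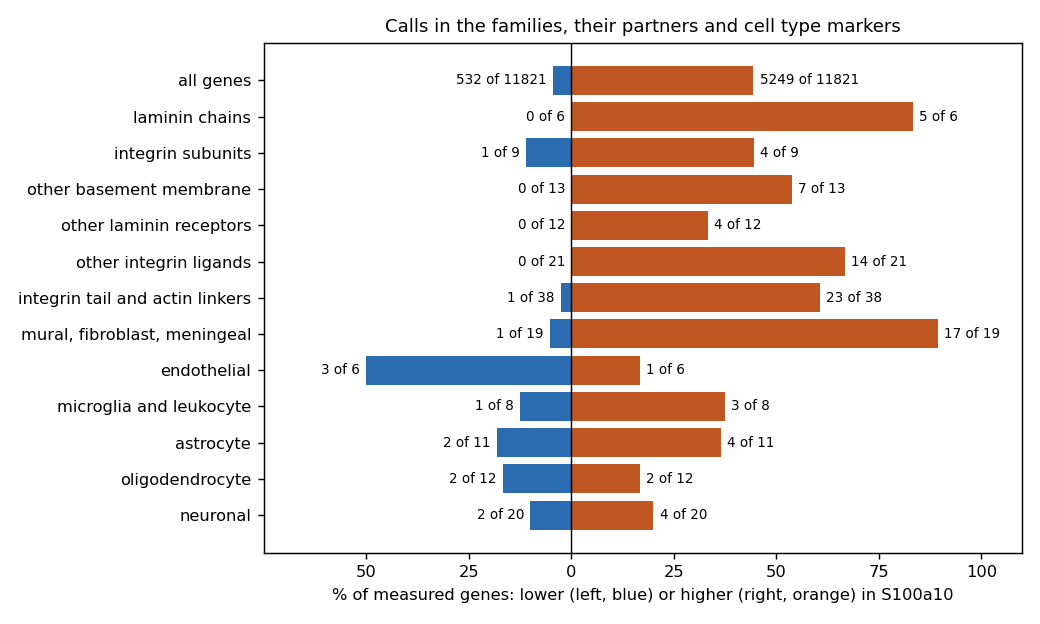
Percent of the measured genes of each list that were higher (orange, right) or lower (blue, left) in S100a10 arrays, with counts, for all 11821 genes, the laminin chains, the integrin subunits, their partners and cell type markers. The mural, fibroblast and meningeal markers have 17 of 19 higher, and the endothelial markers 3 of 6 lower.

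Most measured markers on the list for mural cells, fibroblasts and meninges were higher in S100a10 arrays. Of 19 measured ones 17 were higher and 1, the pericyte gene Rgs5, was lower by 0.88 (44.4% and 4.5% of all genes). Cspg4 did not pass (0.24, limma adjusted p = 0.202) and was lower after quantile normalization (-0.68, limma adjusted p = 0.0211). Myh11, Kcnj8, Abcc9, Notch3 and Col1a1 were too dim to be tested. The summed intensity of the 19 was 1030 to 1490 in Glt25d2 and 42700 to 48500 in S100a10 arrays, with Foxd1, Ogn, Mgp and Igf2 in front, and 11 of the 19 lay under 50 in every Glt25d2 array. Vtn, Col1a2 and Col3a1 stand in this list and among the ligands. Of 6 measured endothelial markers Sox17, Erg and Esam were lower and Eng was higher, with sums of 1020 to 2270 in Glt25d2 and 450 to 500 in S100a10 arrays, while Pecam1, Cdh5, Tek, Tie1, Kdr, Flt1 and Emcn were too dim to be tested. Eng lay at -0.048 after quantile normalization, where 5 of the 6 were lower and 0 higher. Without Glt25d2 replicate 3 also 5 were lower, with Cldn5 at -2.63 and Slco1a4 at -2.33 added, and Eng stayed higher. Of 8 measured microglial and leukocyte markers Tmem119, Fcer1g and Tyrobp were higher and Cd68 was lower, with sums of 439 to 751 and 848 to 1230, and P2ry12, C1qa, C1qc, Ptprc and Trem2 were too dim to be tested.

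Of 11 astrocyte markers 4 were higher and 2 lower (sums of 11600 to 21200 in Glt25d2 and 23500 to 29200 in S100a10 arrays). Gjb6, a connexin, was the astrocyte marker that differed most, by 6.26, or 5.43 without Glt25d2 replicate 3. Of 12 oligodendrocyte and precursor markers Pdgfra and Olig2 were higher and Ermn and Mbp lower, with sums of 19000 to 25900 and 11300 to 18400. Pdgfra lost its call without Glt25d2 replicate 1 or any 1 S100a10 array and was 1.72 in place of 2.50 without Glt25d2 replicate 3, Mbp lost its call without S100a10 replicate 1 or 3, and Olig2 did not pass after quantile normalization. The list had 0 higher and 6 lower after quantile normalization, and 3 and 4 without Glt25d2 replicate 3. Of 20 neuronal markers 4 were higher, led by Slc17a7, and Map2 and Nefm were lower, with sums of 130000 to 139000 and 153000 to 155000. This list had 3 higher and 5 lower after quantile normalization, and 8 and 3 without Glt25d2 replicate 3. Over all genes 18.4% were higher and 18.4% lower after quantile normalization, and 55% and 6.11% without Glt25d2 replicate 3. The share of higher genes as deposited was under the 44.4% of all genes in the microglial, astrocyte, oligodendrocyte and neuronal lists. After quantile normalization it was over the 18.4% of all genes in the microglial list (3 of 8 higher, 1 lower) and the astrocyte list (3 of 11 higher, 2 lower). Without Glt25d2 replicate 3 these lists had 3 higher and 1 lower, and 6 higher and 3 lower. Of the 8 microglial markers 4 lay under 50 in every Glt25d2 array. The part of any of these cells in the integrin and laminin differences was not tested.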

How the data were processed

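The deposited table holds linear intensities that the authors made with GCRMA, per the submitters' processing notes, from biotin-labelled RNA amplified in 2 cycles from 15 ng, per the labels. No genome build and no version of GCRMA is given in the sources used here. The text of the series speaks of averaged replicates, but 6 columns were given and used. Of 45101 probe sets 64 controls were left out. Genes were named from probe sets with 1 symbol, and all 39 member genes matched RefSeq (GRCm38.p6) with 0 symbols changed. Log2 values without a pseudocount entered limma 3.58.1 under R 4.3.3 (lmFit, eBayes, 2-sided, no block, threshold 0.05) over 21291 probe sets and tested on simulated data. Where every array of a line lay under 50, the fold is a bound of the brighter line's mean log2 against 50. Members, lists and the suspicion about Glt25d2 replicate 3 were chosen with earlier results of these data known. Per-array values were planned for up to 12 passing genes a direction and their tested partners, and up to 4 passing genes a list by size; here every tested member is given, and other list genes (Npnt, Vcam1, Dag1, Col4a1, Tln1, Ilk, Parvb, Neurod6, Rgs5, Col1a2 and Col3a1 among the markers) were chosen for their role or after their values were seen. Alternatives were filters, a pseudocount of 16, rescaling, a replicate block, a trended prior, array weights, gene-level fits and each array left out. Tables and plots used matplotlib 3.10.9, numpy 2.4.6, pandas 2.3.3 and Python 3.11.15. The 6 arrays limit the precision.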

Additional observations from a re-analysis of the deposited data

How the results depend on the processing

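Of the 26 tested probe sets, 11 kept their direction and call in every alternative run that tested them. They were all 4 of Itgb5, and 1 each of Itga3, Itga8, Itgb3bp, Itgbl1, Lama4, Lamb1 and Lamb2. Not every alternative tested each of them. Of the 11, only Itgb5 1456195_x_at and Itgb3bp 1456097_a_at had both line means at 50 or more, so the fit with that filter left out the others. The number of member probe sets higher in S100a10 arrays, 19, was 11 after quantile normalization, 12 after median centring, 12 after quantile normalization without Glt25d2 replicate 3, 5 with both means at 50 or more and 45 without a filter, where all 84 were tested; for genes, 12 became 6, 6, 7, 5 and 22. The number lower, 1, became 2, 2, 7, 0 and 15, and for genes 2, 2, 7, 0 and 6; it was 1 to 3 with 1 array left out. Fits with 1 value per gene give no count of probe sets. With the replicate number as a block (replicate block), 16 probe sets and 10 genes were higher and 1 lower; Itga2b, Itgb1 1426918_at and Itgb3bp 1420665_at no longer passed. Same-numbered arrays deviated with correlations of -0.452, 0.224 and -0.238, and arrays with other numbers with -0.395 to 0.455. With 3 arrays a line these values cannot show whether the numbers pair arrays, and the labels do not say.

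Signs turned as follows, in the order quantile normalization, median centring, and quantile normalization without Glt25d2 replicate 3: Itga2b -0.533, -0.368 and -0.416, Itga4 -0.202, -0.083 and -0.621, Itga6 -0.511, -0.507 and -1.462, Itgav -0.491, -0.767 and -1.343, Itgb8 -0.223, -0.423 and -0.519, Lamb1 1424114_s_at -0.389, -0.350 and -0.591, Itgb3bp 1420665_at -0.442, -0.281 and -0.303, and Itgb3bp 1449953_at -0.846, -0.691 and -0.470. Lamb3 lay at -0.025 after quantile normalization alone. With array weights Itga6 was -0.693, Itgav -0.865 and Itgb8 -0.031. Itga6 was -0.378 with values under 50 set to 50, and Itgav -0.009 with the pseudocount. With 1 array left out Itga6 ranged from -0.640 to 0.768, Itgav from -0.943 to 0.494, Itgb8 from -0.001 to 0.562 and Itgb3bp 1449953_at from -0.098 to 0.396. Itga2b did not pass without Glt25d2 replicate 1 or 2, nor Itgb3bp 1420665_at without either of these or without S100a10 replicate 1 or 3. The causes were not tested beyond what each step does. Intensities under 50 set the limit of what can be compared.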
